A study of Mus musculus with 12 samples.

Results

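Histone genes were read across 6 Affymetrix arrays of mouse erythroleukemia (MEL) cells, a leukemia line of the red cell lineage. A probe set, a group of short probes summarised to 1 value, counted as a histone probe set where the platform annotation ties it to a single gene whose symbol begins with a histone prefix such as Hist1h, H1f, H2a, H2b, H3c or H3f. The H2- genes of the major histocompatibility complex were left out. This gave 36 probe sets for 25 genes, of 18193 genes that any single-gene probe set represents. Of the 25, 10 are clustered histone genes (14 probe sets) and 15 are variant or other histone genes (22 probe sets).

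The arrays were 3 of G9a knockdown MEL cells and 3 of wild type MEL cells. The labels describe 4 days in medium with 2% DMSO, which drives erythroid maturation, and 5 µg/ml of doxycycline to induce the knockdown. That text is identical for both groups, so whether wild type cells had doxycycline as well is not given in the sources used here. Neither are the construct, its promoter, the number of clones, or whether arrays 1 to 3 of a group were separate cultures. The p-values below therefore measure the spread between arrays, which may be technical. The comparison asks which transcripts differ when G9a, a methyltransferase that acts on a lysine in the tail of histone H3 and is encoded by Ehmt2, is depleted.

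Histones package DNA: an octamer of H2A, H2B, H3 and H4 forms the core of the nucleosome, and H1 binds the linker between cores. Clustered, or replication-dependent, histone genes lie in gene clusters, are transcribed mainly in S phase, and make mRNAs that end in a stem-loop instead of a poly(A) tail. Variant, or replacement, histone genes mostly stand alone, make polyadenylated mRNAs, and are expressed outside S phase too. H3f3a and H3f3b, for example, encode the same protein, H3.3, which the chaperones HIRA and DAXX with ATRX place into chromatin independently of replication.

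The promoters of 4 genes are printed because differences at their probe sets are described below: H3f3b, H3f3a and H3c4 between replicate numbers, and H2ac19 between knockdown and wild type. Of these, only the H3f3b difference passed its test. H3c7, which also passed, had no window. Each printed promoter is the 250 bases upstream of the annotated gene start in RefSeq's GRCm38.p6, written 5′ to 3′ on the gene's strand. The windows are chr11:116024505-116024754 on the minus strand for H3f3b, chr1:180813606-180813855 on the minus strand for H3f3a, chr13:23575513-23575762 on the plus strand for H3c4, and chr3:96240375-96240624 on the minus strand for H2ac19. Capitals mark exact matches, on either strand, to 3 elements known from histone promoters. One is CCAAT, which appears as ATTGG where it lies on the other strand. The next is TATAAA, whose form on the other strand is TTTATA. The last is the octamer ATTTGCAT, or ATGCAAAT when turned round. No 2 of the marked matches overlap.
H3f3b: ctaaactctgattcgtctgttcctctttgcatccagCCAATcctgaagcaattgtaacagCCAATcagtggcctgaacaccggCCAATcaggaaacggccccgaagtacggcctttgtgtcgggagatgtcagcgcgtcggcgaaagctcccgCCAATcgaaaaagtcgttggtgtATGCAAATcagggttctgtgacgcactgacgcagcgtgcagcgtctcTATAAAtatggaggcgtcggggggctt
H3f3a: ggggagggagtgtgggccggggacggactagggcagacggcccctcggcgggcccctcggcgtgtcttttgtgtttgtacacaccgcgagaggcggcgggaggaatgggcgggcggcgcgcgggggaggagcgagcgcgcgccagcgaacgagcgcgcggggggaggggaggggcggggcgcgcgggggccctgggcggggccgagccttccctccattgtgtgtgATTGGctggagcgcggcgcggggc
H3c4: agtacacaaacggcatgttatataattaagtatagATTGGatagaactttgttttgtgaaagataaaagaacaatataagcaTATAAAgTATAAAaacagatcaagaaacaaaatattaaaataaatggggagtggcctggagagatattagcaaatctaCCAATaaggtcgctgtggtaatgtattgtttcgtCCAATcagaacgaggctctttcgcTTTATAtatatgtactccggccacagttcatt
H2ac19: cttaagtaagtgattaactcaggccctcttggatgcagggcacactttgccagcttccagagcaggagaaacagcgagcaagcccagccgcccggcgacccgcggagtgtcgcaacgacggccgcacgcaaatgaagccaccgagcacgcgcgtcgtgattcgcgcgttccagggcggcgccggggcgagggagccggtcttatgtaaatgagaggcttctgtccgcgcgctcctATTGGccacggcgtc

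The H3f3b window held 4 CCAAT elements, 1 TATAAA and 1 octamer, and the H3c4 window held 3 CCAAT and 3 TATAAA elements. H3f3a and H2ac19 had 1 CCAAT element each and no match to the other motifs. H3f3a's window was 77.2% G and C, H2ac19's 63.6%, H3f3b's 54.0% and H3c4's 32.8%. Over the 22 histone genes with a RefSeq window, CCAAT was present in 8 of 8 clustered and 10 of 14 variant genes, against 33.85% of all 32851 windows of this length. TATAAA was present in 4 of 8 clustered and 2 of 14 variant genes, against 12.37% of all windows, and the octamer in 1 of 8 and 2 of 14, against 1.6%. H2bc21, H2ax and H3c7 had no window in the table. A match is a run of letters and not a measured binding site, and these windows were not tested against the expression values.

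Values are GCRMA log2 values as the authors deposited them. A probe set was tested where it exceeded log2 4 in at least 3 of the 6 arrays, which held for 17028 probe sets. Between 16928 and 17167 probe sets exceeded that floor per array, and the array medians over tested probe sets lay between 8.12 and 8.15 in knockdown and between 8.09 and 8.20 in wild type. The targeted gene followed the labels: its probe set 1426888_at read 4.29, 4.28 and 4.16 in knockdown, against 7.43, 7.07 and 6.82 in wild type (limma adjusted p = 0.0216). A second Ehmt2 probe set read 6.67, 7.33 and 7.58 in knockdown, against 9.92, 10.03 and 10.23 in wild type (limma adjusted p = 0.0719). The first was the only probe set of all those tested to pass the threshold of 0.05, that is 0.00587%, and 2, or 0.0117%, passed when replicate number was added as a block. The count was 0 when any 1 array other than wild type replicate 1 was left out. Of the erythroid marker list, 9 of 10 genes were on the array and all 9 were tested, with a log2 summed level of 15.83 to 16.00 in knockdown and 15.86 to 15.98 in wild type. Of the myeloid markers 2 of 7 passed the filter (Mpo, Elane, Itgam, Csf3r and Lyz2 did not). The summed level of all 7 was 7.63 to 8.32 in knockdown and 7.51 to 8.02 in wild type. Of the megakaryocyte markers 2 of 5 passed. The summed level of all 5 was 11.05 to 11.66 in knockdown and 11.85 to 12.17 in wild type. Of the 2 tested, Itga2b differed by −0.71 without overlap, while Pf4 differed by −0.12 with overlap. The part of the Itga2b difference in the histone values was not tested. The filter passed none of the 4 lymphoid or of the 5 fibroblast and endothelial markers on the array.

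Of the 36 histone probe sets, 20 (14 genes) passed the filter and 16 did not, and those 16 read between 1.76 and 4.12 in every array. None of the 6 arrays exceeded the floor at 14 of those 16. The 11 genes with no tested probe set were H1f4, H1f6, H1f7, H1f8, H1f10, H2al2a, H2al3, H2ap, H2bc18, H2bfm and H2bl1. H1f6 and H1f7 are known from testis and H1f8 from oocytes. In the clustered class the tested probe sets were 2 of 5 for H1, 2 of 2 for H2A, 3 of 4 for H2B and 3 of 3 for H3. In the variant class they were 0 of 4 for H1, 8 of 14 for H2A, 0 of 2 for H2B and 2 of 2 for H3. No probe set was tied to a single H4 gene, and 5 of the 20 carry an _s_at or _x_at suffix, which marks probes that may bind more than 1 transcript.

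No histone probe set passed the test between knockdown and wild type: 0 of 20 were called, the lowest limma adjusted p being 0.586. At an unadjusted limma p under 0.05 there were 2 of 20, both for the H2A gene H2ac19, where 5.87% of all tested probe sets were under it. In 3 of 20 (15%) the groups did not overlap, a share near the 12.4% of all tested probe sets. With the replicate block the count stayed at 0, the lowest adjusted p being 0.202. At an unadjusted p under 0.05 the blocked fit gave 6 of 20, for H2ac19 (both probe sets), H3c4, H3c7, H2aj and H3f3a, where 13.7% of all tested probe sets were under it. The 10 tested clustered probe sets had a median difference, knockdown minus wild type, of −0.16 (7 lower, 3 higher, from −0.78 to 0.07), and the 10 variant probe sets one of 0.04 (4 lower, 6 higher, from −0.32 to 0.59), beside −0.0083 over all tested probe sets. In the authors' MAS5 summary of the same arrays the medians were −0.024 for clustered and −0.047 for variant probe sets, so the classes lay closer together there. RNA came from whole cell samples, in which fewer cells of a kind and less RNA per cell cannot be told apart.

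**Figure D1:**
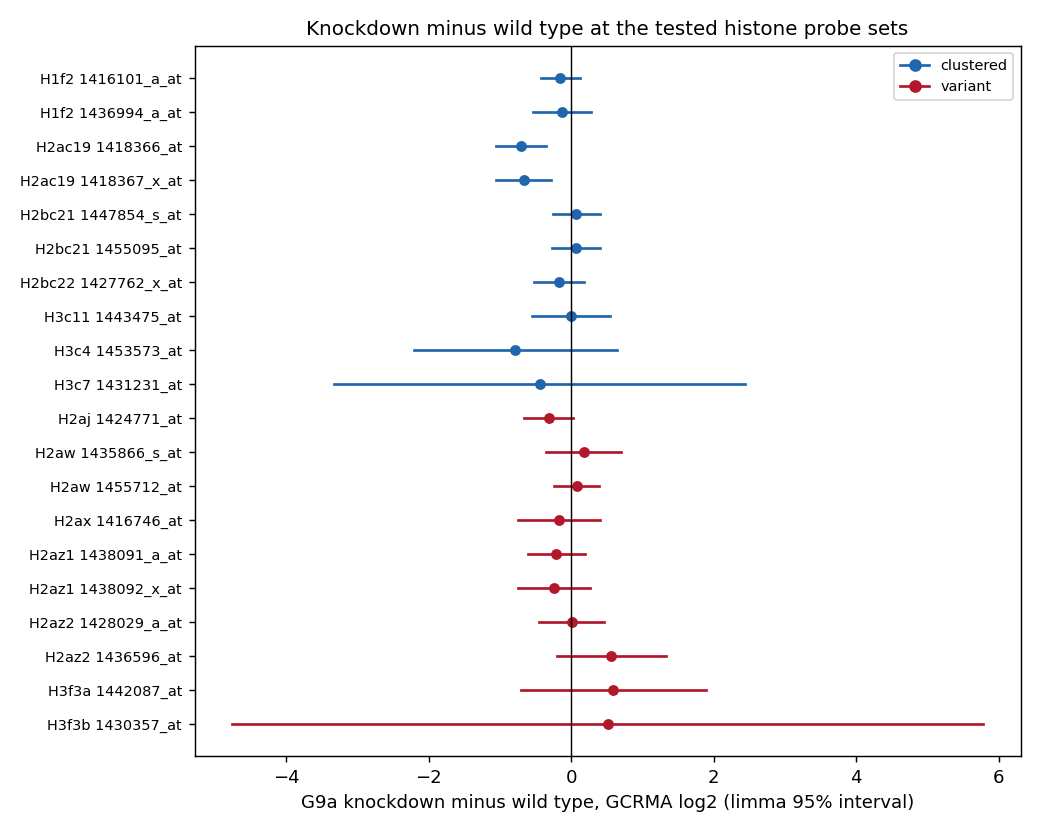
Difference in GCRMA log2 value, G9a knockdown minus wild type, at the 20 tested histone probe sets (points), with limma's 95% interval (bars, n = 3 arrays each), coloured by class. Only the 2 H2ac19 probe sets have intervals clear of 0, before adjustment for 17028 tests, and the interval for H3f3b runs from −4.76 to 5.78.

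H2ac19, which encodes a core H2A and was formerly called Hist2h2aa2, had the lowest p of the histone genes. Its probe set 1418367_x_at read 12.29, 12.29 and 12.78 in knockdown, against 13.19, 13.11 and 13.07 in wild type. All 3 knockdown arrays lay below all 3 wild type arrays, and knockdown replicate 3 was the closest to them. The difference was −0.67 ± 0.16 (SE, n = 3 each; 95% interval −1.05 to −0.28), or 1.59-fold lower in knockdown, with an unadjusted limma p of 0.00495 and an adjusted p of 0.647. A second H2ac19 probe set, 1418366_at, added after its values were seen, read 11.17, 11.34 and 11.66 in knockdown, against 12.16, 12.06 and 12.05 in wild type, again with no overlap. Its difference was −0.70 ± 0.15 (SE, n = 3 each), 1.63-fold lower, with an adjusted limma p of 0.586 and rank 72 among the 17028 unadjusted p-values. Within replicate numbers 1, 2 and 3 the knockdown array lay below its wild type counterpart by 0.99, 0.72 and 0.40 at that probe set. MAS5 gave differences of −0.59 and −0.72 at these probe sets, also without overlap between groups.

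The protein-coding neighbour H2ac18 is a near-identical copy of H2ac19, so these probe sets may read both genes. A further probe set that the annotation ties to H2ac19 and H2ac18 together read 9.15, 9.72 and 9.47 in knockdown, against 9.30, 10.24 and 10.39 in wild type. There the groups overlapped, because wild type replicate 1 lay below 2 knockdown arrays, and the difference was −0.53.

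None of the other clustered genes passed the test. H1f2, the linker histone gene formerly called Hist1h1c, read 14.29, 14.35 and 14.47 in knockdown and 14.16, 14.71 and 14.63 in wild type, at 1436994_a_at. These overlap, with a difference of −0.13 ± 0.17 (SE; limma adjusted p = 0.943). The H2B gene H2bc21 read 10.70, 10.47 and 10.76 in knockdown and 10.56, 10.40 and 10.75 in wild type, at 1447854_s_at. Each replicate number was within 0.14 of its partner, and the difference was 0.07 ± 0.14 (SE; limma adjusted p = 0.961). H2bc22, another H2B gene, read 9.05, 8.87 and 9.32 in knockdown and 9.33, 9.29 and 9.15 in wild type. Of the wild type arrays, 2 lay within the knockdown range, for a difference of −0.17 ± 0.14 (SE; limma adjusted p = 0.892).

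Among the clustered H3 genes, H3c4 had a mean of 6.47 ± 1.09 in knockdown and 7.25 ± 0.69 in wild type (SD, n = 3 each). The difference of −0.78 ± 0.59 (SE) gave a limma adjusted p of 0.882, and 0.238 with the replicate block, and the pairs of equal number differed by −1.31, −0.35 and −0.69. H3c7 had a mean of 5.89 ± 2.03 in knockdown and 6.33 ± 1.68 in wild type (SD, n = 3 each), a difference of −0.44 ± 1.20 (SE; limma adjusted p = 0.975, and 0.335 with the replicate block). Its pairs differed by −0.84, −0.16 and −0.32. At both genes replicate 1 was the low array of each group. H3c11, the dimmest tested clustered gene, differed by 0.0020 and lay between 4.11 and 4.81 in knockdown and between 4.11 and 4.69 in wild type.

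None of the variant genes passed the test. H2aj, which encodes the H2A.J variant known in human cells to accumulate in senescence, read 11.26, 11.35 and 11.57 in knockdown and 11.60, 11.61 and 11.93 in wild type. The 3 knockdown arrays lay below the 3 wild type ones, the nearest being close together, and the pairs of equal number differed by −0.34, −0.25 and −0.35. In MAS5 the H2aj groups overlapped, with a difference of −0.30. The difference was −0.32 ± 0.14 (SE, n = 3 each; limma adjusted p = 0.852, and 0.288 with the replicate block). H2az1, one of the genes for H2A.Z, a variant found at promoters, read 12.48, 12.27 and 12.60 in knockdown and 12.38, 12.68 and 12.90 in wild type. It differed by −0.21 ± 0.17 (SE; limma adjusted p = 0.890), with overlap.

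H2az2, the other H2A.Z gene, read 11.40, 11.13 and 10.87 in knockdown and 11.39, 11.08 and 10.91 in wild type at 1428029_a_at. Knockdown and wild type arrays of equal number were within 0.05 of each other, and the difference was 0.0058 ± 0.19 (SE; limma adjusted p = 0.998). A dimmer H2az2 probe set, 1436596_at, had a difference of 0.57 in GCRMA and −0.19 in MAS5, so the direction rests on the summary. H2ax, whose protein is phosphorylated at DNA breaks, read 12.16, 11.67 and 11.79 in knockdown and 12.52, 11.77 and 11.83 in wild type, a difference of −0.17 ± 0.24 (SE; limma adjusted p = 0.946). H2aw, an H2A gene formerly called Hist3h2a, read 8.62, 8.42 and 9.21 in knockdown and 8.77, 8.51 and 8.44 in wild type. Knockdown replicate 3 alone put the knockdown mean above, and the difference was 0.18 ± 0.22 (SE; limma adjusted p = 0.934). H2aw is in the variant class here through its current symbol only, and its former symbol would make it clustered. With H2aw as clustered, the median knockdown difference of variant probe sets moved from 0.04 to −0.080.

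At their single-gene probe sets, the H3.3 genes had higher means in knockdown, but the arrays were far apart within each group. H3f3a read 5.18, 6.89 and 5.85 in knockdown and 4.47, 5.83 and 5.86 in wild type at 1442087_at, a difference of 0.59 ± 0.54 (SE; limma adjusted p = 0.899). H3f3b read 4.15, 11.73 and 9.42 in knockdown and 4.67, 10.04 and 9.06 in wild type at 1430357_at. In both groups replicate 1 lay near the floor while replicates 2 and 3 were many times brighter, and the difference of 0.51 ± 2.19 (SE; limma adjusted p = 0.986) was far smaller than the spread.

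**Figure D2:**
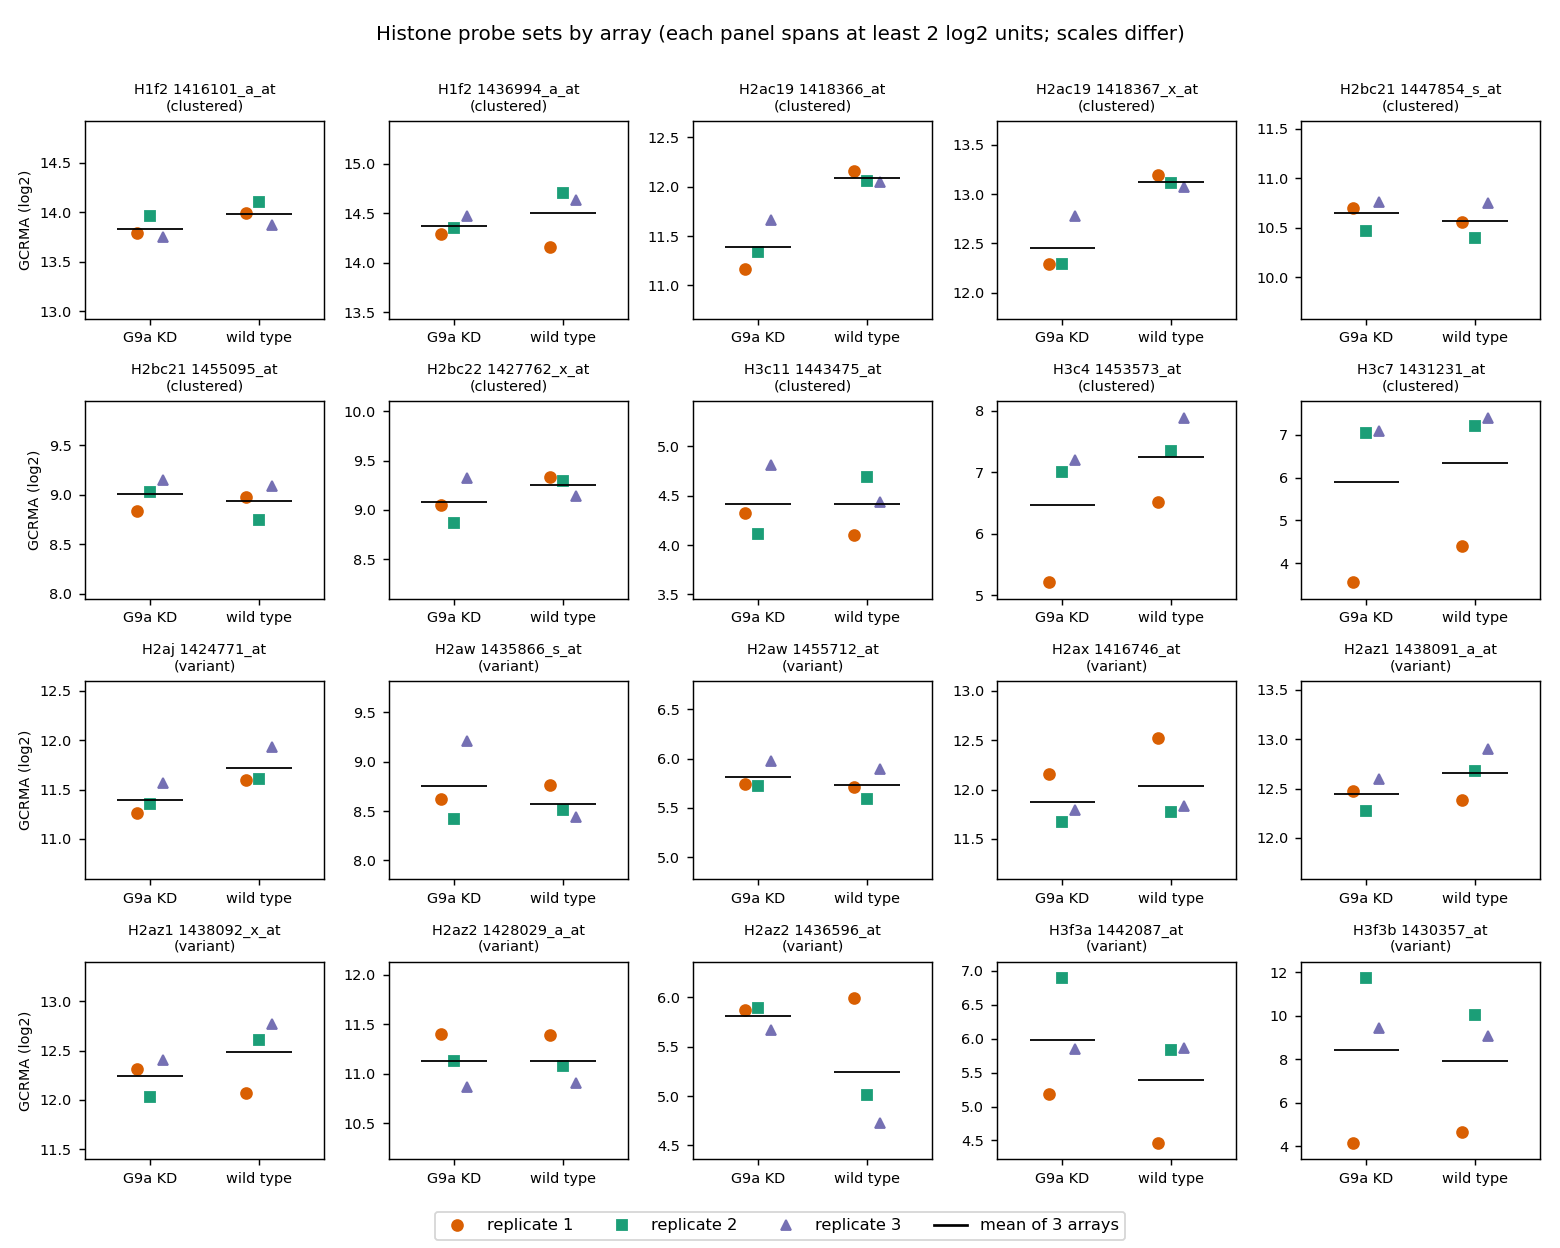
GCRMA log2 value of each of the 20 tested histone probe sets by array, with G9a knockdown on the left and wild type on the right of each panel, symbols for replicate numbers 1 to 3 and a line at the mean of 3 arrays. The groups separate at H2ac19 and H2aj, and replicate 1 stands below the other arrays of both groups at H3c4, H3c7, H3f3a and H3f3b.

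Further histone transcripts are covered by 27 probe sets that the annotation ties to several genes, at least 1 of them a histone, so that no gene can be named from them. Of these, 22 were tested and 0 were called between knockdown and wild type (lowest limma adjusted p 0.838). At an unadjusted p under 0.05 there was 1, an H4 probe set, beside 5.87% of all tested probe sets. With the replicate block, 0 of the 22 were called. The blocked fit's unadjusted limma p was under 0.05 at probe sets listing H2A genes alone (0.019 and 0.021) or clustered H3 genes alone (0.016, 0.028 and 0.033). It was also under 0.05 at 1 listing H4 genes alone (0.022), beside 13.7% of all tested probe sets. Differences of the 22 ran from −1.53 to 0.18 with a median of −0.22, beside −0.0083 over all tested probe sets. Of the 22, 19 were lower and 3 higher in knockdown, against 8796 and 8232 of all tested. All 5 that list clustered H3 genes alone were lower, from −1.53 to −0.15, as were the 3 tested ones that list H4 genes alone, from −0.66 to −0.12. The H3 probe set with the largest difference read 11.12, 8.60 and 11.85 in knockdown, against 12.81, 11.25 and 12.09 in wild type. Its groups overlapped, and replicate 2 was the low array in each.

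Replicate number separated a few histone probe sets much more than the knockdown did. With group in the model, limma's F-test over the 3 numbers called 2 of 20 histone probe sets (10%), the clustered gene H3c7 and the variant gene H3f3b, beside 383 of all tested probe sets, or 2.25%. At an unadjusted p under 0.05 it gave 6 of 20, near the 24% of all tested probe sets. Both called probe sets were lower in replicate 1 of both groups. The labels do not say what the numbers stand for.

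The H3f3b probe set 1430357_at had the largest contrast. Probe sets that list replacement H3 genes with other genes, described below, had contrasts of only −0.31 to 0.115, so the drop is stated for 1430357_at alone. At 1430357_at, replicate 1 read 4.15 in knockdown and 4.67 in wild type, while replicates 2 and 3 read 11.73 and 9.42 in knockdown and 10.04 and 9.06 in wild type. Both replicate 1 arrays lay below the other 4, by 6.42 within knockdown and by 4.88 within wild type. Replicate 1 minus the mean of replicates 2 and 3 was −5.65 ± 0.43 (SE, 6 arrays; 95% interval −6.72 to −4.58), with a limma F-test adjusted p of 0.0304. Both replicate 1 values are close to the log2 4 floor, so no fold is given. In MAS5 the intensities were 67.3 in replicate 1 of knockdown and 83.5 in replicate 1 of wild type, with 5195.4 and 1332.4 in knockdown replicates 2 and 3 and 1982.1 and 1084.1 in those of wild type. The MAS5 contrast was −4.69 on the log2 scale, with an adjusted p of 0.0845.

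H3c7, a clustered H3 gene formerly called Hist1h3f, had the next largest contrast among histone probe sets. Replicate 1 read 3.55 in knockdown and 4.39 in wild type, against 7.04 and 7.09 in knockdown replicates 2 and 3 and 7.20 and 7.40 in those of wild type. Replicates 2 and 3 agree closely in both groups, and both replicate 1 arrays lie below all of them. The contrast was −3.21 ± 0.17 (SE, 6 arrays) in the values as deposited, with a limma F-test adjusted p of 0.0219. In MAS5 it was −1.93, with an adjusted p of 0.0845. Knockdown replicate 1 was below the log2 4 floor and wild type replicate 1 just above it, so no fold is given. Neither call survived leaving out 1 of the replicate 1 arrays: the adjusted p for both genes was 0.227 without knockdown replicate 1 and 0.309 without wild type replicate 1, where 1 array alone carries the contrast.

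H3c4, another clustered H3 gene, formerly Hist1h3d, had the same order without passing the threshold. It read 5.21 in knockdown replicate 1 and 6.52 in wild type replicate 1, against 7.00 and 7.19 in knockdown replicates 2 and 3 and 7.35 and 7.89 in those of wild type. The contrast was −1.49 ± 0.21 (SE, 6 arrays; limma F-test, adjusted p = 0.0554). H3f3a, the partner of H3f3b in encoding H3.3, also had replicate 1 lowest in each group, with a contrast of −1.29 ± 0.23 (SE, 6 arrays; limma F-test, adjusted p = 0.0788). It passed without knockdown replicate 3 (adjusted p = 0.0146) or without wild type replicate 3 (adjusted p = 0.0198). H3c11, which the rule for named genes did not pick, had a contrast of −0.29 in GCRMA and −1.71 in MAS5, and its replicate 1 arrays did not lie below all others in GCRMA.

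Set out by family, all 5 single-gene H3 probe sets lay below their 6-array mean in replicate 1 of knockdown and of wild type. The median deviation of the 5 from that mean was −1.65 in knockdown replicate 1 and −1.21 in wild type replicate 1, against 0.92 and 0.39 in knockdown replicates 2 and 3 and 0.49 and 0.88 in those of wild type. For the 15 probe sets of the other families, the medians stayed between −0.20 and 0.04 in knockdown and between 0.05 and 0.12 in wild type. The families were compared after these values were seen, and no test was made of the difference between them.

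**Figure D3:**
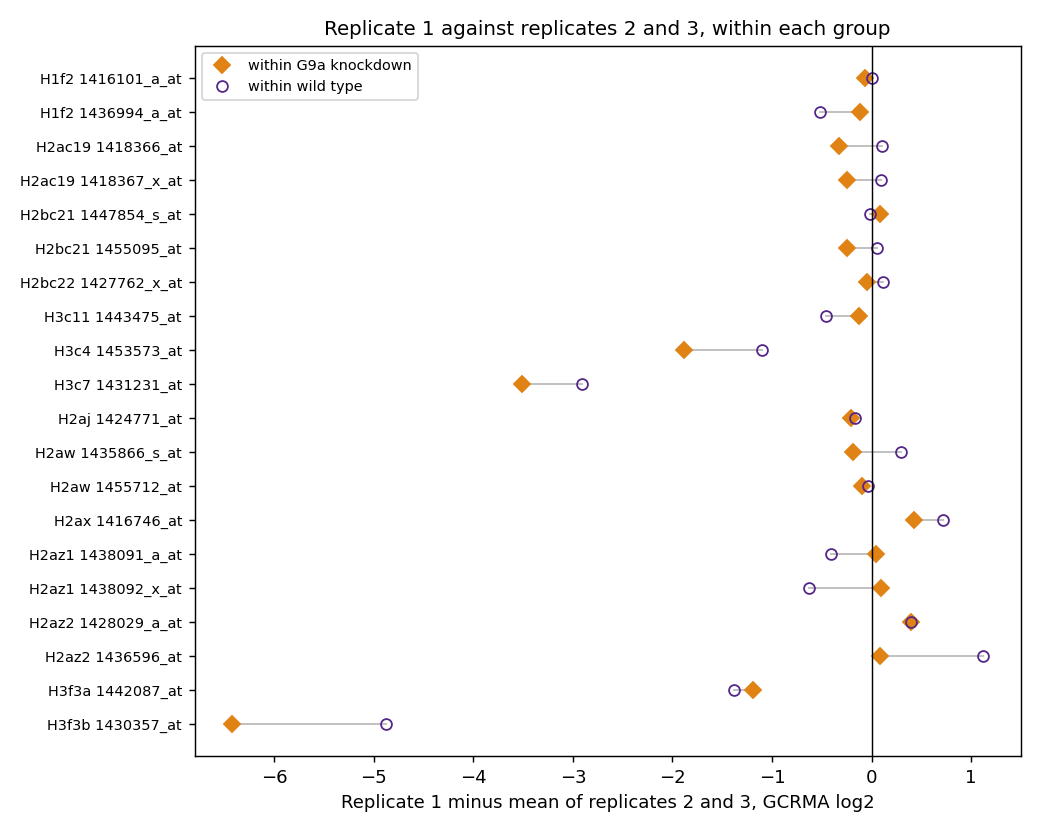
Replicate 1 minus the mean of replicates 2 and 3 in GCRMA log2 units for the 20 tested histone probe sets, computed within G9a knockdown (filled diamonds) and within wild type (open circles). H3f3b, H3c7, H3c4 and H3f3a lie left of −1 in both groups, and H2ax and both H2az2 probe sets lie right of 0 in both.

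Probe sets that read several H3 genes had small or mixed contrasts. Of the 5 that the annotation ties to replacement H3 genes together with other genes, the contrasts ran from −0.31 to 0.12, and all were bright, between 14.07 and 15.23 in every array. Of the 5 that list clustered H3 genes alone, 3 were higher and 2 lower in replicate 1, with contrasts from −0.47 to 1.02. None of the 22 tested several-gene histone probe sets was called for replicate number (lowest limma adjusted p 0.0641), beside 2.25% of all tested, and 6 had an unadjusted p under 0.05, near the 24% of all tested. The lowest p belonged to a probe set listing 10 H2A genes, which was higher in replicate 1, with a contrast of 0.75. The files do not give the part of a transcript that each probe set reads, including those of H3f3b, H3f3a, H3c4 and H3c7.

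In the opposite direction, H2ax and H2az2 were higher in replicate 1. H2ax read 12.16 and 12.52 in replicate 1 of knockdown and wild type, with all other arrays at or below 11.83. Its contrast was 0.57 ± 0.12 (SE, 6 arrays), or 1.49-fold, with a limma F-test adjusted p of 0.111. H2az2 at 1428029_a_at read 11.40 in knockdown replicate 1 and 11.39 in wild type replicate 1, with a contrast of 0.40 ± 0.10 (SE, 6 arrays; limma F-test, adjusted p = 0.131). Neither passed. Counted over all 20, both replicate 1 arrays lay below the other 4 at 5 probe sets, against 13.3% of all tested probe sets, and above the other 4 at 2, against 17.8%. The fifth of those below was H1f2 at 1436994_a_at, with a contrast of −0.32.

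By class the replicate contrast did not divide the histones. Clustered probe sets had a median of −0.10 (8 lower, 2 higher in replicate 1) and variant probe sets one of −0.13 (6 lower, 4 higher), beside 0.04 over all tested probe sets. Contrasts of at least 1 log2 unit in size were found for 558 of all tested probe sets (3.28%) and for 4 histone probe sets, and those of at least 3 for 20 (0.117%) and for 2. The 4 were H3c4, H3c7, H3f3a and H3f3b, and all were downward.

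**Figure D4:**
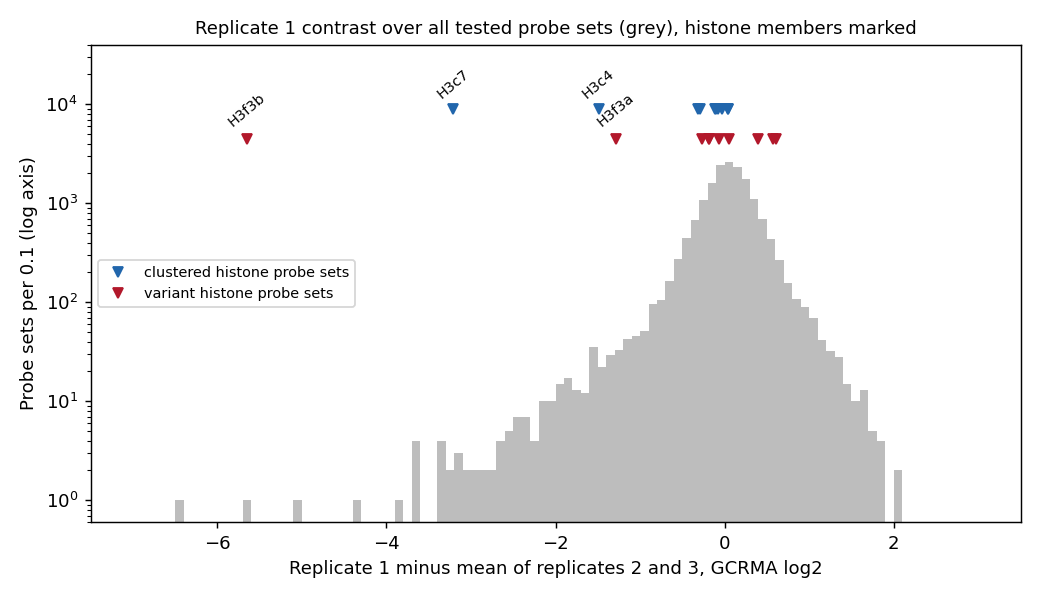
Distribution over all 17028 tested probe sets of replicate 1 minus the mean of replicates 2 and 3, in GCRMA log2 units (grey bars, logarithmic count axis), with the 10 clustered and 10 variant histone probe sets as markers placed above it at arbitrary height. Most histone markers lie in the bulk, while H3f3b at −5.65 and H3c7 at −3.21 lie in its lower tail.

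Array measures that move with replicate number are given beside these contrasts, and their part in them was not tested. The 3′ minus 5′ difference of the Actb control, a measure of RNA integrity and labelling, was lowest in replicate 1 of each group: 1.00 in knockdown replicate 1 against 1.07 and 1.07 in knockdown replicates 2 and 3, and 0.97 in wild type replicate 1 against 1.10 and 1.19 in wild type replicates 2 and 3. S phase genes were higher in replicate 1: the 17 tested of 20 listed had a median contrast of 0.82. Limma's F-test called 3 of the 17, beside 2.25% of all tested probe sets: Mcm5 (contrast 1.03) and Mcm7 (0.82) of the replicative helicase and the cyclin gene Ccna2 (1.48), all higher in replicate 1. The 10 tested clustered histone probe sets had contrasts from −3.21 at H3c7 to 0.035, with −1.49 at H3c4 (8 lower, 2 higher). Several-gene probe sets ran both ways: those listing H2A genes alone had 0.75 and −0.73, and the 5 listing H3 genes had −0.47 to 1.02. The tested ones listing H2B genes alone had 0.02 to 0.10, and those listing H4 genes alone −0.40 to −0.14.

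Genes that supply or handle histones were set beside the members. Of 30 listed genes for histone gene transcription and mRNA 3′ end processing, 24 were tested, and 0 were called (lowest limma adjusted p 0.834). In knockdown 8 were lower and 16 higher, against 8796 and 8232 of all tested, with a median of 0.04. Ccne2 alone had an unadjusted limma p under 0.05, that is 1 of 24, beside 5.87% of all tested probe sets. Ccne2, a cyclin E gene, read 7.11, 6.60 and 7.12 in knockdown, against 7.46, 7.19 and 7.61 in wild type, a difference of −0.48. Hinfp, an activator of H4 genes, read 7.46, 7.94 and 7.59 in knockdown, against 7.00, 7.44 and 7.28 in wild type, a difference of 0.42. Neither gene's groups overlapped, which held for 12.4% of all tested probe sets. Sympk, a scaffold of the 3′ cleavage complex, differed by 0.34 with overlap. The blocked fit also called 0 of the 24. Its unadjusted limma p was under 0.05 at Ccne2, Hinfp and Sympk, beside 13.7% of all tested probe sets. Limma's F-test for replicate number called 0 of the 24, beside 2.25% of all tested probe sets.

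Of 34 listed histone chaperones and deposition factors, 28 were tested, 14 lower and 14 higher in knockdown, and 0 were called (lowest limma adjusted p 0.756). Only Anp32e had an unadjusted limma p under 0.05, that is 1 of 28, beside 5.87% of all tested probe sets. Anp32e, which removes H2A.Z, read 13.02, 12.99 and 13.07 in knockdown, against 13.33, 13.39 and 13.27 in wild type. The groups were narrow, with a difference of −0.31, and did not overlap, which held for 12.4% of all tested probe sets. Hira, the H3.3 chaperone, differed by −0.30 and Asf1a, which hands H3 and H4 to other chaperones, by 0.20. The blocked fit also called 0 of the 28. Its unadjusted limma p was under 0.05 at Anp32e, Dnajc9 and Hat1, beside 13.7% of all tested probe sets. Limma's F-test for replicate number called 2 of the 28, Asf1b (contrast 1.32) and Cenpa (0.94), both higher in replicate 1, beside 2.25% of all tested probe sets.

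Of the 17 tested S phase genes, 15 were lower and 2 higher in knockdown, with a median of −0.25. Over all tested probe sets 8796 were lower and 8232 higher, with a median of −0.0083. The group-only fit called 0 (lowest limma adjusted p 0.776). There 1, Rrm2, was at an unadjusted p under 0.05, beside 5.87% of all tested probe sets. The blocked fit also called 0. Its unadjusted limma p was under 0.05 at Rrm2, Gins1, Mcm5, Rrm1, Pole, Prim1, Cdc6, Mcm7 and Mcm4, beside 13.7% of all tested probe sets. Rrm2, a subunit of ribonucleotide reductase, read 8.90, 7.54 and 7.83 in knockdown, against 9.66, 8.93 and 9.17 in wild type, a difference of −1.16. The groups did not overlap, beside 12.4% of all tested probe sets, although knockdown replicate 1 came close to wild type replicate 2. Gins1, of the replicative helicase, read 4.53, 3.63 and 3.84 in knockdown, against 5.56, 4.26 and 4.31 in wild type, with 2 knockdown arrays below the floor. Pole, the catalytic subunit of DNA polymerase epsilon, differed by −0.54, and the groups of both genes overlapped. These values stand beside the median of −0.16 at clustered histone probe sets, which was −0.024 in MAS5.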

How the data were processed

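Total RNA of MEL cells was hybridised to 6 Affymetrix arrays after standard labelling, per the labels. The authors deposited each array in 2 summaries, per the labels: MAS5, as linear intensity with a 2% trimmed mean of 500 on each array, and GCRMA, as log2 values from 0.69 to 16.49. No source used here gives versions, settings or the labelling primer. How fully the arrays read mRNAs without a poly(A) tail, such as those of clustered histone genes, is therefore not known. All 12 columns were mapped, and the summaries were not counted as replicates.

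Gene names came from the platform annotation, with 1 gene for 34945 probe sets and several for 932, and former names and promoters from RefSeq GRCm38.p6. The files name no build for the probe sets. Of 45101 probe sets, 64 controls were left out. Limma 3.58.1 in R 4.3.3 compared knockdown with wild type (group only) and replicate numbers (group and number, F-test), with Benjamini-Hochberg adjustment over all 17028 tested probe sets and a threshold of 0.05; p-values are two-sided. The test was checked on simulated data with independent arrays, equal spread at every probe set and large added shifts. These data are less simple, so the check does not cover the spreads and sizes reported here.

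Deviations from group means correlated at 0.72, 0.57 and 0.37 between arrays of equal number 1, 2 and 3, and at −0.59 to 0.17 otherwise. Deviations from a mean of 3 arrays sum to 0, which by itself pushes the other correlations down. Arrays of equal number thus deviated together, most for number 1 and least for number 3, but no label states a pairing. The blocked fit is an alternative. Clustered genes were those with H1f1 to H1f6, H2ac, H2bc or H3c symbols, and the rest were variant. Values by array are given for every called histone probe set, every variant gene at its brightest tested probe set, and in each clustered family the 2 genes with the lowest p in either test. Each further list names up to 3 genes by lowest knockdown p. The members and lists were chosen with earlier results of these data known. Other settings tried were MAS5 values as log2 of the intensity + 1, no filter, a floor of log2 6, median centring, array weights, leaving out arrays, leaving out _s_at and _x_at probe sets, and 1 probe set per gene. One more, H2aw as clustered, was chosen after seeing the data.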

Additional observations from a re-analysis of the deposited data

How the results depend on the processing

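Histone probe sets called between knockdown and wild type stayed at 0 under all 13 alternatives. Over all probe sets, that comparison called 1, but 0 with MAS5 values, with no filter or with both replicate 1 arrays left out, 2 with the replicate block, 3 with the stricter filter or array weights, and 0 to 1 when single arrays were left out. The replicate number test called 383 probe sets, but 0 with MAS5 or no filter, 688 with the stricter filter, and 0 to 938 when single arrays were left out. For histones it called 2, but 0 with MAS5 or no filter, and 0 to 3 when single arrays were left out, with 0 when either replicate 1 array was missing. Without a filter 45037 probe sets share the adjustment. H3c7 and H3f3b then had adjusted p of 0.0848 and 0.103, while H3c4 passed with the stricter filter (0.0281) or centring (0.0359). The replicate block changed no histone call.

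The median knockdown difference of clustered probe sets, −0.16, was −0.024 with MAS5, −0.099 with no filter and −0.24 (without knockdown replicate 3) to −0.060 (without wild type replicate 2) without single arrays. That of variant probe sets changed sign to −0.047 with MAS5, −0.017 with no filter, −0.165 with the stricter filter and −0.080 with H2aw as clustered, and was 0.0086 with array weights, 0.0058 with 1 probe set per gene and −0.028 to 0.071 without single arrays. The median replicate contrast of clustered probe sets was −0.29 without _s_at and _x_at probe sets or with 1 per gene, and −0.22 (without wild type replicate 3) to −0.0021 (without knockdown replicate 1) without single arrays. That of variant ones was −0.021 with no filter, −0.183 with the stricter filter, with 1 per gene or with H2aw as clustered, and −0.159 to −0.029 without single arrays. The cause of these shifts was not tested.

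Of the 13 named probe sets, 6 changed sign under at least 1 alternative in the knockdown comparison, where no histone probe set was called. In the replicate contrast 5 changed sign, none of them called for replicate number. Without single arrays, the knockdown difference ranged from −0.011 to 0.16 at H2bc21, −1.41 to 0.73 at H3c7, −0.050 to 0.34 at H2aw, −0.31 to 0.074 at H2ax, −0.13 to 0.14 at H2az2 and −1.14 to 2.65 at H3f3b, which was −0.28 with array weights. The replicate contrast ranged from −0.25 to 0.097 at H2ac19, −0.011 to 0.081 at H2bc21, −0.096 to 0.17 at H2bc22, −0.19 to 0.29 at H2aw and −0.41 to 0.042 at H2az1. Centring gave −0.0037 at H2bc21 and −0.0033 at H2bc22, and MAS5 −0.10 at H2bc22. With 3 arrays in each group, and 16 histone probe sets near background, smaller differences could not be seen.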

Other observations

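Macroh2a1, which encodes a histone variant with a macro domain and falls outside the histone symbols used here, was chosen after its values were seen. It read 10.18, 9.97 and 9.83 in knockdown, against 10.37, 10.30 and 10.36 in wild type, at 1424572_a_at. The groups did not overlap, and the difference of −0.35 ± 0.12 (SE, n = 3 each) had a limma adjusted p of 0.789. Cenpa, the centromeric H3 variant, read 10.65, 9.92 and 9.48 in knockdown and 10.70, 10.14 and 9.39 in wild type, with its highest value in replicate 1 of both groups (limma F-test, adjusted p = 0.0379). Its contrast of 0.94 runs opposite to those of H3c7 and H3f3b.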
